A study of Mus musculus with 6 samples.

Results

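The transcriptional response to low oxygen was described through 10 genes in cultured mouse neural stem cells (NSCs): *Vegfa*, *Adm*, *Ankrd37*, *Bnip3*, *Egln3*, *Ndrg1*, *Car9*, *Ddit4*, *Hif1a* and *Epas1*. They were chosen by symbol, with earlier results of these data known and with the control libraries already seen to differ in their hypoxia state, and all 10 were found among the 32493 genes of the count table. How the control libraries differ in these genes is therefore a description and no finding. The comparison of knockout cells with the mean of the controls is not independent of that choice either. It rests on the same control libraries, and a member that is high in ctrl 3 also has a high control mean.

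The NSCs came from tissue around the lateral ventricles of mouse embryos at E14.5 and were passaged in B27 medium. In cko embryos, floxed alleles of miR-151, whose excision removes both arms of the miRNA, were combined with Emx1-IRES-Cre, which drives Cre recombinase in the dorsal telencephalon. The ctrl embryos carried the same floxed alleles without Cre, and the sample labels call them wt. Of the 6 deposited columns, that of ctrl replicate 2 equals the rounded-up mean of ctrl 1 and ctrl 3 in all 32493 genes, so the measured libraries are ctrl 1, ctrl 3, cko 1, cko 2 and cko 3. They held 17883796 to 23335736 counts, and 3 counts, taken as the smallest level that can be told from 0, corresponded to 0.129 to 0.168 CPM (counts scaled to a library of 1000000). The oxygen level of the cultures is not given in the sources used here. The labels do not say which libraries came from separate embryos, so p-values measure the spread between these libraries only. NSC genes were well detected, with *Sox2* at 556 to 626 and *Nes* at 471 to 1068 normalized CPM, whereas *Emx1*, the gene whose promoter drives Cre in this model, had 1 to 10 counts per library. The deleted miRNA itself was not analysed here, and its host gene *Ptk2*, at 133 and 150 normalized CPM in ctrl and 138 to 142 in cko, does not check the deletion.

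Cells sense oxygen through hypoxia-inducible factors (HIFs). The alpha subunits HIF-1α, encoded by *Hif1a*, and HIF-2α, encoded by *Epas1*, are made continuously, hydroxylated by the oxygen-dependent EGLN enzymes and then destroyed through the VHL ubiquitin ligase. When oxygen is low the alpha subunits persist, pair with ARNT and bind DNA at hypoxia response elements, whose core reads ACGTG or GCGTG. HIF activity is thus set mainly at the level of protein, and its trace in RNA is looked for in target genes. In the embryonic brain, low oxygen is part of the stem cell niche, and VEGF from neural progenitors guides the ingrowth of vessels.

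The promoters of the members were searched for that core, because the genes are grouped here as HIF targets and factors. RefSeq windows on GRCm38.p6 running from 250 bases before to 50 bases after the start site were found for 8 of the 10 genes, in 9 windows, and *Ndrg1* and *Epas1* were not matched. With ACGTG and GCGTG searched on both strands, 8 of the 9 windows held a core, against 60.7% of 14465 windows of tested genes and 43.8% of all 32851 windows. The windows of the wider lists described further on held it in 66.7% (HIF machinery), 76.9% (other hypoxia response genes) and 74.2% (glycolytic targets). The upstream start of *Vegfa* had none in its window and the downstream start had 2. The core nearest to the start site is shown for each gene in the direction of transcription, with the matched letters in capitals (CACGT and CACGC are the same cores read on the other strand), since these are the letters through which HIF is known to bind.
Vegfa: gagtgcgtgccCACGTcagagagcaac
Adm: gcaaatctgacCACGCccaccgtccgc
Ankrd37: agtgtttgggtACGTGaggccgcagcg
Bnip3: gctccgccgccGCGTGcgtcccgcccc
Egln3: gtgcatctcagACGTGagatccaggtt
Car9: tatttccgatgCACGTacagcccgtcc
Ddit4: acctggaggggGCGTGgcctcgccggg
Hif1a: ggctgagagcaACGTGggctggggtgg
They lie at chr17:46025359-46025385 (minus strand, downstream *Vegfa* start), chr7:110627592-110627618 (plus, *Adm*), chr8:45999841-45999867 (minus, *Ankrd37*), chr7:138909526-138909552 (minus, *Bnip3*), chr12:54204088-54204114 (minus, *Egln3*), chr4:43506997-43507023 (plus, *Car9*), chr10:59951870-59951896 (minus, *Ddit4*) and chr12:73907786-73907812 (plus, *Hif1a*). The first matched base stood 6 bases before the start site in *Ankrd37*, 18 in *Car9*, 35 in *Bnip3*, 54 in *Adm*, 70 in *Hif1a*, 115 in *Ddit4*, 211 in *Vegfa* and 229 in *Egln3*. *Bnip3* held 4 separate cores, the most of any member, *Ankrd37* held 3, and in *Bnip3* and *Hif1a* 1 further core was the palindrome CACGTG, which is also the E-box of MYC and USF proteins. A match describes letters in a window and is not evidence of binding.

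The 8 response genes (all members but *Hif1a* and *Epas1*) were highest in ctrl 3, and in 6 of them the cko libraries also lay below ctrl 1. In edgeR's quasi-likelihood test of 3 cko against 2 ctrl libraries, 5 of the 10 members were lower in cko NSCs at a Benjamini-Hochberg adjusted p under 0.05 (*Vegfa*, *Adm*, *Bnip3*, *Ndrg1* and *Epas1*), where 8.57% of the 16710 tested genes were called in this direction. None was higher, whether p was adjusted or not and also in DESeq2, against 7.86% of tested genes called higher. The number called lower was 9 without ctrl 1 and 5 without ctrl 3, where 11.9% and 10% of tested genes were, and 3, 2 and 1 without cko 1, 2 and 3, where 5.5%, 2.55% and 2.8% were. *Car9* did not pass the filter on low counts, and *Ankrd37*, *Egln3*, *Ddit4* and *Hif1a* were tested and not called. At the threshold of the study, a log2 fold change beyond 0.9 with an unadjusted p under 0.01, 6 of the 10 were lower (the same 5 and *Ankrd37*), against 4.17% of tested genes, and none was higher, against 2.39%. In 7 of the 10 all 3 cko libraries lay below both ctrl libraries, an arrangement found in 24.3% of tested genes. These are bulk libraries, in which fewer cells that express a gene and less RNA per cell cannot be told apart.

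**Figure D1:**
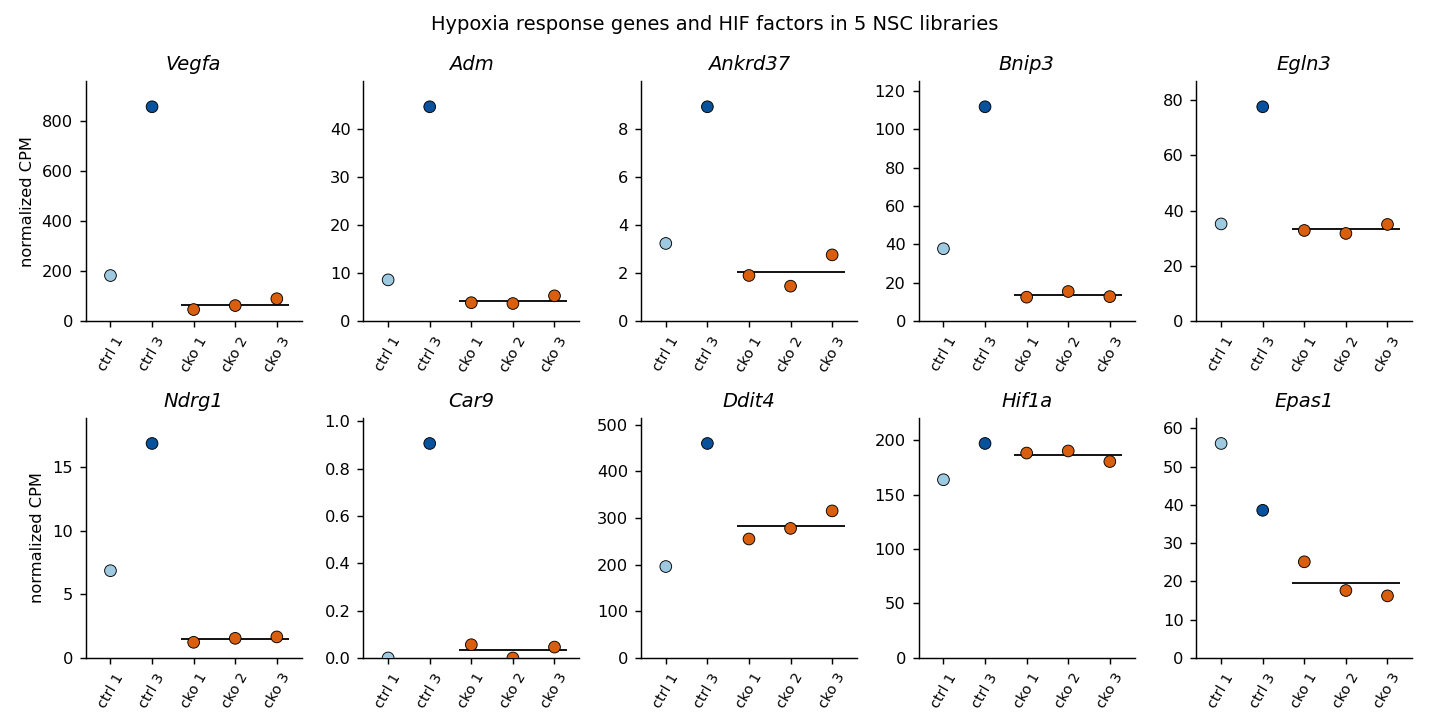
Normalized CPM (linear axis from 0) of the 10 members in each of the 5 measured libraries; points are single libraries and the horizontal line is the mean of the 3 cko libraries. ctrl 3 is the highest library in every gene but *Epas1*, where ctrl 1 is highest.

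Secreted signals came first. *Vegfa* (ENSMUSG00000023951, chromosome 17, 46016993 to 46032369 on GRCm38, minus strand), the main growth factor for blood vessels, stood at 182 normalized CPM in ctrl 1 and 855 in ctrl 3, and at 46.7, 62.5 and 89.8 in cko 1, 2 and 3. ctrl 3 exceeded ctrl 1 by 4.69-fold, more than the 1.92-fold between the highest and the lowest cko library, and both ctrl libraries stood above all cko libraries. The mean of ctrl was 518.5 ± 475.6 (SD, n = 2) and that of cko 66.3 ± 21.8 (SD, n = 3), which edgeR fitted as -2.96 on the log2 scale (SE 0.57, adjusted p = 0.0150). Taken apart, the cko mean was 2.75-fold below ctrl 1 and 12.9-fold below ctrl 3.

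*Adm* (ENSMUSG00000030790, chromosome 7, 110627661 to 110629820, plus strand) encodes adrenomedullin, a peptide that dilates vessels. It followed the same order at a lower level, with 8.60 and 44.6 normalized CPM in ctrl 1 and ctrl 3 and 3.86, 3.69 and 5.29 in cko 1, 2 and 3. edgeR gave a log2 fold change of -2.63 (SE 0.59, adjusted p = 0.0254), and the cko mean was 2.01-fold below ctrl 1 and 10.4-fold below ctrl 3. The calls of both signals needed all 3 cko libraries. Without cko 1, 2 or 3 the adjusted p of *Vegfa* was 0.0664, 0.0781 and 0.0562, and that of *Adm* 0.0932, 0.109 and 0.0883.

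Among the intracellular targets, *Ndrg1* showed the steepest fall. *Ndrg1* (ENSMUSG00000005125, chromosome 15, 66929318 to 66969640, minus strand), a stress-inducible gene that is also abundant in myelinating glia, had 157 and 316 counts in ctrl 1 and ctrl 3 and 22, 36 and 36 in the cko libraries, or 6.86 and 16.9 against 1.23, 1.54 and 1.65 normalized CPM. The groups did not overlap, and the cko mean was 4.64-fold below ctrl 1, the farthest of any member from that library, and 11.4-fold below ctrl 3. The edgeR log2 fold change was -2.99 (SE 0.39, adjusted p = 0.00415). Without cko 1, 2 and 3 the adjusted p was 0.0230, 0.0322 and 0.0307 in edgeR.

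*Bnip3* (ENSMUSG00000078566, chromosome 7, 138890836 to 138909519, minus strand), which marks mitochondria for autophagy, stood at 37.7 and 112 normalized CPM in ctrl 1 and ctrl 3 and at 12.5, 15.5 and 12.8 in cko. The fitted change was -2.45 on the log2 scale (SE 0.39, adjusted p = 0.00799 in edgeR, and 0.0501 without cko 3), with the cko mean 2.77-fold below ctrl 1 and 8.20-fold below ctrl 3. The cko libraries were close to each other, within 1.23-fold, so that the ctrl libraries differed from each other by more (2.96-fold) than the cko libraries did.

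*Ankrd37*, which encodes a small ankyrin-repeat protein (ENSMUSG00000050914, chromosome 8, 45996902 to 46005707, minus strand), had few reads, 74 and 167 counts in ctrl and 34, 34 and 60 in cko. At 3.23 and 8.91 against 1.90, 1.46 and 2.76 normalized CPM the groups did not overlap, but ctrl 1 stood near cko 3. Its log2 fold change of -1.56 (95% interval -2.62 to -0.50) missed the threshold in edgeR (adjusted p = 0.0561) and passed it in DESeq2 (adjusted p = 0.00856).

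*Car9* (ENSMUSG00000028463, chromosome 4, 43506966 to 43513729, plus strand), a carbonic anhydrase of the cell surface that is used as a marker of hypoxic tissue, was counted 0 times in ctrl 1, 17 times in ctrl 3 and 1, 0 and 1 times in the cko libraries. All but ctrl 3 lay at or under 3 counts. Against that floor per library, *Car9* in ctrl 3 was at least 6.92-fold higher than in ctrl 1 and at least 5.40-fold to 7.05-fold higher than in each cko library. No fold can be given between ctrl 1 and cko.

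In the remaining targets the cko libraries lay close to ctrl 1 or above it. *Egln3* (ENSMUSG00000035105, chromosome 12, 54178981 to 54203860, minus strand), an oxygen-dependent hydroxylase that HIF induces as feedback on itself, had 35.2 normalized CPM in ctrl 1 and 77.5 in ctrl 3, and 32.8, 31.7 and 35.0 in cko. ctrl 1 stood just above the cko libraries, 1.06-fold over their mean, and ctrl 3 stood apart at 2.34-fold. The fitted log2 fold change of -0.76 had a 95% interval of -1.41 to -0.11 and an adjusted p of 0.108 in edgeR (0.0270 in DESeq2).

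*Ddit4* (ENSMUSG00000020108, chromosome 10, 59949669 to 59951834, minus strand), also called REDD1, restrains mTORC1 in hypoxia and other stress. It stood at 196 and 460 normalized CPM in ctrl 1 and ctrl 3 and at 255, 278 and 315 in cko, so that all 3 cko libraries lay between the ctrl libraries. Against ctrl 1 the cko mean was higher by 0.53 on the log2 scale, and against ctrl 3 it was lower (-0.70). With both, the log2 fold change was -0.21 (95% interval -0.92 to 0.50, adjusted p = 0.671 in edgeR), which leaves the direction undetermined.

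Of the HIF alpha subunits, *Epas1* was called lower in cko NSCs and *Hif1a* was not, and the difference between them was not tested. *Hif1a* (ENSMUSG00000021109, chromosome 12, 73901375 to 73947530, plus strand) stood at 164 and 197 normalized CPM in ctrl and at 188, 190.0 and 180.3 in cko, with all cko values between the ctrl values. Its log2 fold change was 0.047 (95% interval -0.17 to 0.27, adjusted p = 0.773 in edgeR), so that a change of the size seen in *Vegfa* or *Bnip3* lies outside the interval. *Epas1* (ENSMUSG00000024140, chromosome 17, 86753700 to 86833410, plus strand) had 56.0 and 38.6 normalized CPM in ctrl 1 and ctrl 3 and 25.1, 17.6 and 16.2 in cko. It was the member in which ctrl 1 exceeded ctrl 3, and both ctrl libraries lay above the cko libraries. *Epas1* fell by 1.27 on the log2 scale in edgeR (SE 0.22, adjusted p = 0.0101), and its adjusted p was 0.0582 without cko 2 and 0.0523 without cko 3.

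**Figure D2:**
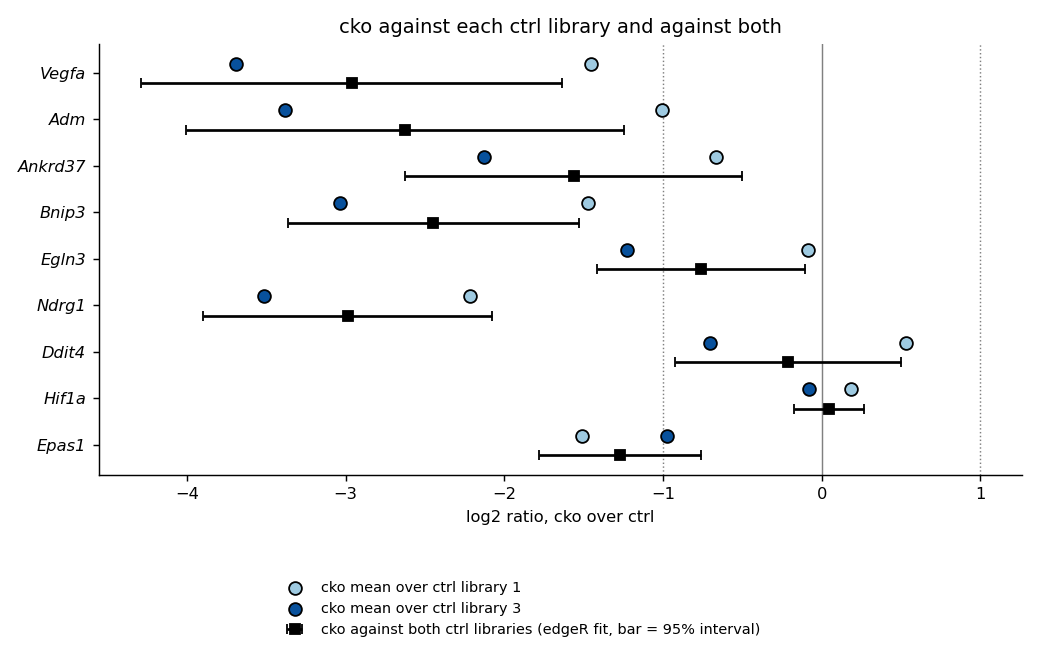
log2 ratio of cko over ctrl for the 9 tested members: circles compare the mean of the 3 cko libraries with ctrl 1 (light) or ctrl 3 (dark) alone, and squares with 95% intervals are the edgeR fit to both ctrl libraries; dotted lines mark a 2-fold difference. The light circle lies right of the dark circle in every gene but *Epas1*, and on the positive side for *Ddit4* (0.53) and *Hif1a* (0.19).

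Set against each ctrl library apart, 5 of the 10 members were more than 2-fold lower in the cko mean than in ctrl 1 (*Vegfa*, *Adm*, *Bnip3*, *Ndrg1* and *Epas1*), against 6.12% of tested genes. Against ctrl 3 there were 6 (*Vegfa*, *Adm*, *Ankrd37*, *Bnip3*, *Egln3* and *Ndrg1*), against 6.38% of tested genes, *Car9* lay beyond it as well by its lower bound, and *Epas1* was just short of it at 1.96-fold. None was more than 2-fold higher in cko, against 4.86% of tested genes for ctrl 1 and 5.46% for ctrl 3. Both comparisons share the 3 cko libraries, and since the members were chosen on how ctrl 1 and ctrl 3 differ, nothing is read from either count against its background. Between the ctrl libraries, the contrast that led to the choice of these genes, 7 of the 10 were more than 2-fold higher in ctrl 3 (8 with *Car9* by its lower bound), where 4.23% of tested genes were, and none more than 2-fold lower, where 5.13% were. The 5 genes called lower in cko NSCs were called in edgeR with either ctrl library left out, when the remaining library is assumed to vary as the cko libraries do.

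Levels can be compared between genes only per length, here as normalized CPM per kb of annotated exon. *Ddit4* had the highest level of the members in every library, 112 in ctrl 1, 262 in ctrl 3 and 145 to 180 in cko. In ctrl NSCs *Vegfa* came next, at 42.5 in ctrl 1 and 199.5 in ctrl 3, above *Hif1a* at 27.7 and 33.4. In cko NSCs *Hif1a*, at 30.6 to 32.2, stood above *Vegfa*, at 10.9 to 20.96. *Vegfa* and *Egln3* (11.9 to 13.1) overlapped there and could not be ordered. *Bnip3* moved from 16.7 and 49.3 in ctrl to 5.53 to 6.83 in cko, and *Ndrg1*, the lowest after *Car9*, from 1.04 and 2.56 to 0.187 to 0.251. The level of *Hif1a* per kb was 2.77 and 4.84 times that of *Epas1* in ctrl 1 and ctrl 3, and 7.10, 10.2 and 10.5 times in cko 1, 2 and 3.

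**Figure D3:**
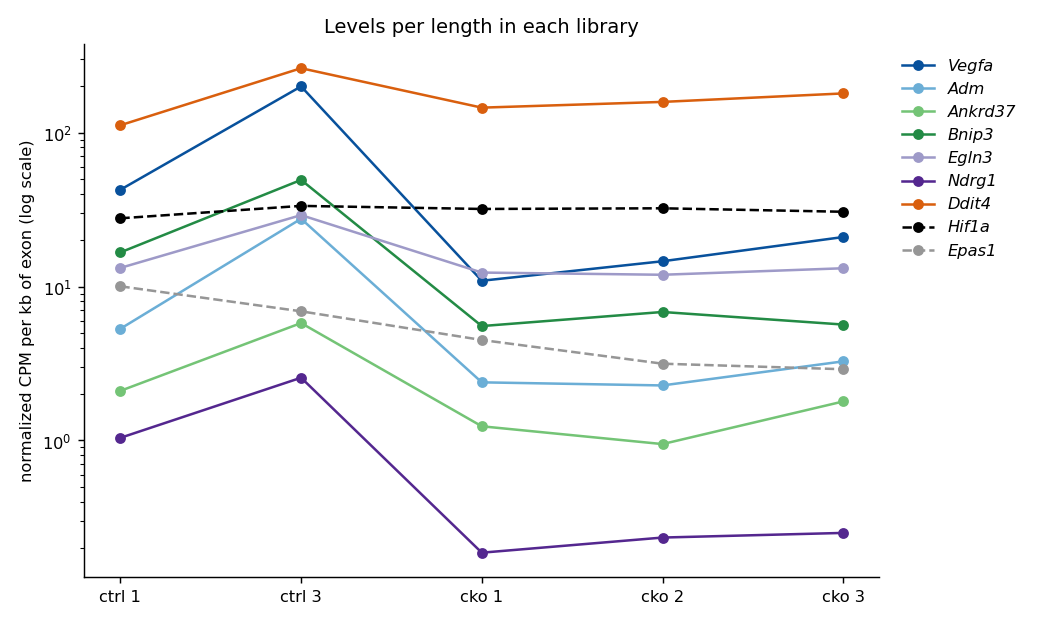
Normalized CPM per kb of exon (log axis) of the 9 members with counts in every library; each line joins the values of 1 gene only for reading, dashed for *Hif1a* and *Epas1*, and the libraries have no order. *Hif1a* stays between 27.7 and 33.4 while *Vegfa* spans 10.9 to 199.5.

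The wider pathway was read from lists of known genes. The counts of every list are to be set beside all tested genes, of which 8.57% were called lower and 7.86% higher. The machinery that sets HIF activity showed no common shift, its median being -0.014 on the log2 scale in cko against ctrl NSCs (-0.0026 over all tested genes), and of its 17 genes 2 were called lower and 2 higher. *Hif3a*, an alpha-subunit relative that HIF can induce, fell from 12.2 and 29.7 normalized CPM in ctrl 1 and ctrl 3 to 4.46 to 4.87 in cko, 2.63-fold below ctrl 1 and 6.39-fold below ctrl 3 (log2 fold change -2.17, adjusted p = 0.00750 in edgeR). *Arnt*, the partner of the alpha subunits, had 93.6 and 92.1 in ctrl and 71.3, 78.3 and 79.1 in cko, a small fall (-0.28, adjusted p = 0.0485). *Egln2*, a hydroxylase that low oxygen does not induce, rose by 0.27 (adjusted p = 0.0464), and *Rbx1*, a subunit of the VHL ligase, by 0.37 (adjusted p = 0.0227). *Egln2* was not called higher in DESeq2, with no filter on low counts or without any single library, and no gene of the machinery was called higher without cko 1, 2 or 3. The main oxygen sensor *Egln1* had 119 and 270 normalized CPM in ctrl and 101 to 106 in cko (log2 fold change -0.89, adjusted p = 0.0719), *Vhl* had -0.31 (adjusted p = 0.0717), and the asparaginyl hydroxylase gene *Hif1an* had -0.0054 (adjusted p = 0.973).

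In the list of other hypoxia response genes the median was -0.80 on the log2 scale, and 9 of 29 tested genes were lower and 2 higher. The collagen prolyl hydroxylase gene *P4ha2* went from 14.1 and 74 normalized CPM in ctrl 1 and ctrl 3 to 2.44 to 2.85 in cko (-4.03 on the log2 scale, SE 0.63, adjusted p = 0.00736 in edgeR). Its relative *P4ha1* changed by -1.79 (adjusted p = 0.0112), and *Ak4*, a mitochondrial adenylate kinase, by -1.88 (adjusted p = 0.00370). The cko mean was 5.25-fold below ctrl 1 and 27.6-fold below ctrl 3 in *P4ha2*, 2.02-fold and 4.92-fold in *P4ha1*, and 2.54-fold and 4.86-fold in *Ak4*. The lipid-droplet coat gene *Plin2* (0.57, adjusted p = 0.00572 in edgeR) and *Ccng2*, a cyclin linked to arrest (0.49, adjusted p = 0.0167), rose instead. In both, all 3 cko libraries lay above the ctrl libraries, an arrangement found in 25.4% of tested genes.

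Glycolytic targets moved furthest as a list, with a median of -1.15 and 14 of 22 genes lower. None was higher in edgeR, with or without adjustment of p, or in DESeq2. *Pdk1*, which keeps pyruvate out of mitochondria, had 94.3 and 228 normalized CPM in ctrl and 22.4, 30.7 and 25.2 in cko (log2 fold change -2.62, adjusted p = 0.00374 in edgeR). *Pfkl*, of the committed step of glycolysis, changed by -1.83 (adjusted p = 0.00708) and *Gpi1*, of the step before it, by -1.87 (adjusted p = 0.00799). The cko mean of *Pdk1* was 3.61-fold below ctrl 1 and 8.75-fold below ctrl 3, that of *Pfkl* 2.37-fold and 4.75-fold, and that of *Gpi1* 2.18-fold and 5.11-fold. *Gapdh*, which has many near-identical processed copies in the genome, stood at 10.8 to 27.2 normalized CPM, and how reads shared with such copies were counted is not given in the sources used here. The row matched to the symbol *Aldoa* (ENSMUSG00000114515) stood at only 1.51 to 2.61 normalized CPM, beside *Aldoc* at 226 to 662. It is among the 22, and whether it holds the main *Aldoa* transcripts was not checked. Over these 3 lists, 25 of 68 tested genes were lower and 4 higher, against 8.57% and 7.86% of all tested genes. In 36 the cko mean was more than 2-fold below ctrl 3 and in 13 more than 2-fold below ctrl 1, against 6.38% and 6.12%. The lists were made with earlier results of these data known. Of the 68 genes, 25 were more than 2-fold higher in ctrl 3 than in ctrl 1, against 4.23% of tested genes. A gene high in ctrl 3 also has a high ctrl mean. These counts are therefore a description, and nothing is read from them against their background. The number called lower was 6 without cko 2, 7 without cko 3 and 13 without cko 1, where 2.55%, 2.8% and 5.5% of tested genes were.

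**Figure D4:**
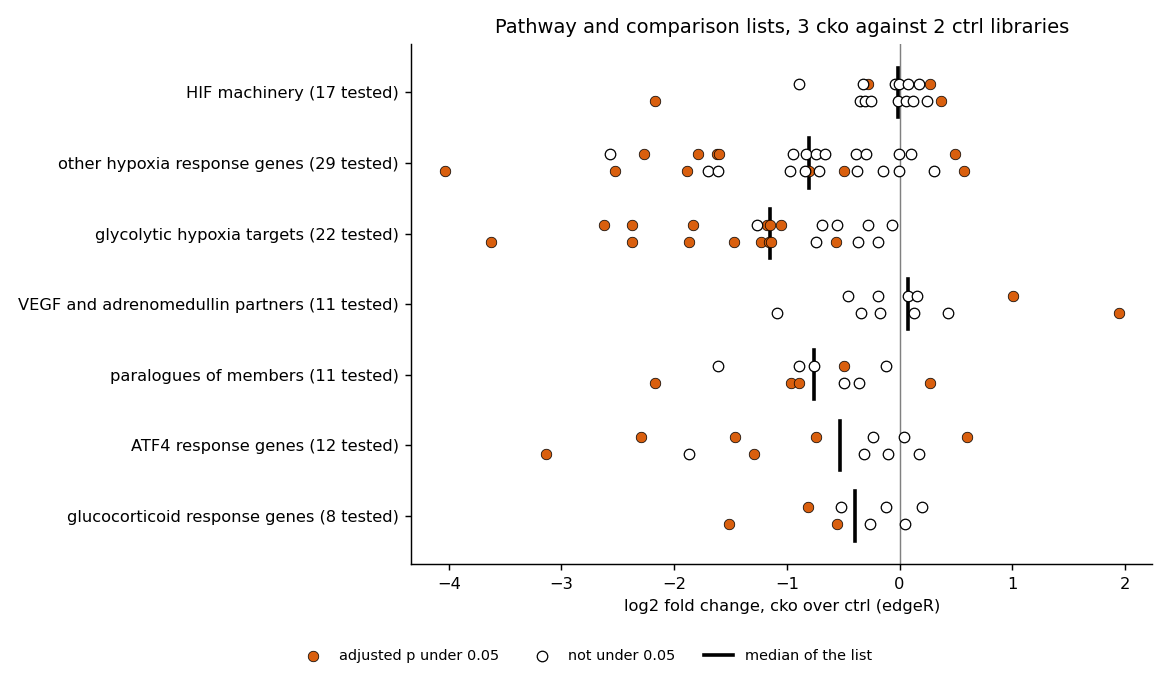
log2 fold change of cko over ctrl NSCs (edgeR, 3 against 2 libraries) for each tested gene of 7 lists; filled points have an adjusted p under 0.05 and the bar is the median of the list. Glycolytic targets all lie left of 0 with a median of -1.15, and the machinery lies around 0 with *Hif3a* apart at -2.17.

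Receptors and partners of the secreted members were read as well. Among 11 tested partners of VEGF and adrenomedullin, none was lower in edgeR, with or without adjustment of p (1 was in DESeq2), and 2 were higher. *Nrp2*, a co-receptor for VEGF and semaphorins, rose from 30.6 and 34.5 normalized CPM in ctrl to 101, 127 and 148 in cko (log2 fold change 1.95, adjusted p = 0.00109 in edgeR), with the ctrl libraries close together. *Ackr3*, a scavenging receptor that also takes up adrenomedullin, rose from 14.7 and 12.4 to 26.6, 28.2 and 27.2 (adjusted p = 0.00294). The VEGF receptor gene *Kdr* had 77 to 140 counts per library, beside endothelial markers at 0 counts in every library (*Cdh5*), 0 to 4 (*Tek*), 6 to 10 (*Pecam1*) and 10 to 15 (*Esam*).

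Of the relatives of the members by sequence, 4 of 11 tested were lower and 1, *Egln2*, higher. *Car2* (-0.96, adjusted p = 0.00929 in edgeR) and *Ndrg2* (-0.89, adjusted p = 0.0207) fell besides *Hif3a* and *Bnip3l*. *Ndrg2* is a gene of astrocytes and *Car2* of oligodendrocytes, and *Ndrg2* was highest in ctrl 1, at 799 normalized CPM, where *Ndrg1* was highest in ctrl 3.

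Several members also answer to signals other than oxygen, and genes of these were read in the same way. Of 12 ATF4 response genes, which follow amino acid and endoplasmic reticulum stress, 5 were lower and 1 higher, with a median of -0.53. *Cebpb* (-2.30), *Atf5* (-1.29) and *Ddit3* (-0.74) fell and the serine synthesis gene *Psat1* rose (0.60), with adjusted p from 0.00494 to 0.0162 in edgeR. All 12 were higher in ctrl 3 than in ctrl 1, some by little, such as *Psat1* at 332 against 282 normalized CPM. By more than 2-fold 4 were, against 4.23% of tested genes. The share of all tested genes higher in ctrl 3 by any amount was not counted. Of 8 glucocorticoid response genes 3 were lower (*Klf9* by 1.51, *Sgk1* by 0.82 and *Per1* by 0.55 on the log2 scale, with adjusted p from 0.000490 to 0.00676 in edgeR). None was higher in edgeR, with or without adjustment of p, or in DESeq2. The part of these signals in the members' values was not tested.

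Markers of other cells moved with some of these results. Of 12 oligodendrocyte lineage markers, 7 were called lower and 2 higher in cko NSCs. The myelin gene *Mbp* and its activator *Myrf* had log2 fold changes of -4.16 and -2.90, the lineage factors *Sox10*, *Olig1* and *Olig2* of -1.90, 0.63 and 0.38, and the list summed to 3266 and 3890 normalized CPM in ctrl and 3545 to 3794 in cko. Of 8 astrocyte markers 4 were lower, and their sum was 3484 and 2365 in ctrl and 1306 to 2050 in cko. *Gfap* set ctrl 1 apart, with 23082 counts against 3330 in ctrl 3 and 2022 to 5319 in cko, and *Epas1* was also highest in ctrl 1. Not all 8 astrocyte markers shared the order of ctrl 1 above ctrl 3. *Aqp4*, *Aldh1l1*, *Gja1* and *Sox9* did so besides *Gfap*. The other 3 were higher in ctrl 3 than in ctrl 1, *S100b* at 19.7 against 19.2 normalized CPM, *Slc1a2* at 646 against 631 and *Aldoc* at 662 against 594. NSC markers, summing to 7700 to 9863, had 3 genes higher and 1 lower of 10 tested, and neuron markers 2 higher and 1 lower of 9. *Ndrg1* is expressed by oligodendrocytes and *Epas1* by astrocytes, and the part of these cells in their fall was not tested. The 7 endothelial markers summed to 4.89 to 7.21 normalized CPM, most of it *Kdr*, the pericyte and smooth muscle markers to 1.57 to 2.97, the blood cell markers to 0.514 to 0.961 and the microglial markers to 0.2298 to 0.8003, with *Cx3cr1*, *Tmem119* and *Itgam* at 0 in every library.

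The profile of the 8 response members over the 5 libraries was compared with that of 11447 other genes of at least 5 normalized CPM on average, as the root mean square difference of log2 values centred on each gene's mean. *Ero1l*, an oxidase of the endoplasmic reticulum, was nearest, with a difference of 0.10 and 68.7 and 284 normalized CPM in ctrl against 32.3, 36.0 and 41.6 in cko. *Slc2a1*, the main glucose transporter of brain barriers and glia (0.24), *Hk2* (0.25), *P4ha1* (0.30) and the retinoic acid receptor gene *Rara* (0.31) came next. The first 4 stood on the hypoxia lists already. The common profile, at 2.195 in ctrl 3 and 0.0987 in ctrl 1 on the centred log2 scale, carries the contrast that led to the choice of members. The lists were also made with earlier results known, so the place of these 4 on them is a description and no finding. Among the members themselves *Adm* lay nearest to the common profile (0.16) and *Ddit4* farthest from it (0.94).

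Reads of some members are uncertain because the strand setting of the counting is not given in the sources used here. In GENCODE M21, exons of *Ankrd37* overlap 349 bp of *Lrp2bp* and 57 bp of *Ufsp2* on the other strand, and *Lrp2bp* had 37 to 71 counts per library, in the range of *Ankrd37* itself. Exons on the opposite strand also overlap 504 bp of *Bnip3*, 419 bp of *Ndrg1*, 330 bp of *Hif1a* and 214 bp of *Car9*. On its own strand *Hif1a* shares 148 bp of exon with *Gm49321*, whatever the strand setting. *Gm49321* and the genes behind the 504 bp and 419 bp, *Gm45507* and *Gm17035*, have no row in the count table. *Vegfa*, *Egln3* and *Ddit4* overlap no annotated gene.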

How the data were processed

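Per the study's methods, the authors checked reads with FastQC, filtered them with NGSQC and aligned them with HISAT2 to mm10 (the submitters' processing notes name GRCm39), and they deposited raw counts per Ensembl gene without normalization. The counting tool, annotation and strand setting are not given in the sources used here. The column deposited for ctrl 2, the rounded-up mean of ctrl 1 and ctrl 3 in each gene, was counted in no n. The labels number replicates 1 to 3 in both genotypes. The embryos were cko and ctrl littermates per the study, but which libraries share a litter is not given in the sources used here.

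GENCODE M21 (GRCm38) gave names, positions and exon lengths for 31829 of 32493 genes. Counts of 5 libraries were tested in R 4.3.3 with edgeR 4.0.16 (filterByExpr, 16710 genes, TMM, quasi-likelihood, Benjamini-Hochberg over all tested genes) and DESeq2 1.42.0, whose missing adjusted p-values were kept missing. Normalized CPM used TMM factors of 0.990 to 1.01. Errors are SD over libraries. Profiles used log2(CPM + 0.1). Totals set the floor of 3 counts, which covers counting error only.

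The members and lists were chosen with earlier results of these data known. The text names the members, in each list up to 3 called genes per direction with the smallest p, 6 genes of the machinery, and the 5 nearest profiles. Genes named beyond this rule (*Bnip3l*, *Gapdh*, *Aldoa*, *Kdr*, *Ptk2*, *Lrp2bp*, *Ufsp2* and the cell markers) were chosen after their values were seen. The values of 1 marker gene are not reported here. The edgeR fits, with and without a replicate block, and the DESeq2 fit were tested on simulated data. Alternatives were other scalings, filters and tools, each library left out, a replicate block and all 6 columns. Figures used matplotlib 3.10.9.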

Additional observations from a re-analysis of the deposited data

How the results depend on the processing

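Of the 10 members, 5 were called lower in edgeR, 8 with no filter on low counts, 7 in DESeq2 and between 1 (without cko 3) and 9 (without ctrl 1) with a library left out, where 8.57%, 7.33%, 10.1%, 2.8% and 11.9% of all tested genes were. None was called higher, except *Ddit4* without ctrl 3, where 1 member was, so that leave-one-out fits ranged from 0 to 1. *Ddit4* reversed there to 0.53 (adjusted p = 0.0117 in edgeR), since it then had ctrl 1 alone as control, and gave -0.71 without ctrl 1. *Hif1a* reversed to -0.091 without ctrl 1 (adjusted p = 0.437) and gave 0.19 without ctrl 3. Over the 3 hypoxia lists, 25 genes were called lower and 4 higher. The lower count was 45 with no filter, 6 to 45 with a library left out, 39 with all 6 columns in DESeq2 and 43 with all 6 columns and the replicate block. The higher count was 1 to 4 with a library left out and 0 at the study's threshold. Leaving out a library also leaves fewer samples, and the cause of the other shifts was not tested.

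Deviations of libraries with the same replicate number had Pearson's r = 0.2 for number 1 and 0.0568 for number 3 across genes, which are not independent replicates. With 2 ctrl libraries, the deviation of ctrl 3 is that of ctrl 1 with its sign reversed. The values of r are thus not separate and cannot decide whether the number is a pairing. The main fit took none. With the number as a replicate block 6 members were called lower, against 6.37% of tested genes, *Ankrd37* among them (-1.27, adjusted p = 0.0374 in edgeR). *Egln2* was not called higher there, and in the 3 lists 31 genes were lower and 2 higher. The counts of members beyond 2-fold of a single ctrl library were unchanged under both other scalings, and without each cko library lay at 4 to 5 against ctrl 1 and at 6 to 7 against ctrl 3. Over all tested genes, the numbers called lower and higher were 1432 and 1314, with 416 and 317 without cko 2 and 2794 and 2865 with all 6 columns in edgeR. Only *Ndrg1* of the members was called in every alternative, and those with all 6 columns take the mean column of ctrl 2 as a library. Depth limited *Car9*, which lay at or under 3 counts in all libraries but ctrl 3.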
